A study of Mus musculus with 14 samples.

Results

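The promoters of nuclear receptor genes were taken from a table of DNA methylation levels by gene symbol: the numbered Nr0 to Nr6 genes, the retinoic acid receptors (Rar), retinoid X receptors (Rxr), peroxisome proliferator-activated receptors (Ppar), thyroid hormone receptors (Thr), ROR and estrogen-related receptors (Esrr), Vdr and Esr2. They filled 57 of the 22110 promoter rows. A second copy of 1 Rara row, with the same 6 levels, was counted once, which left 56 rows of 41 genes among 21965 rows of 20343 genes. The set was proposed because the Nr4a1 promoter was highest in clone L, so that the Nr4a1 level in clone L is given as a description, with no test. All other members were included by name alone; Nr1h2, Rarb and Rora were not analysed here.

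Nuclear receptors are transcription factors that bind DNA through a zinc finger domain and, in many cases, switch their activity when a small lipophilic ligand such as a steroid, a retinoid or a fatty acid binds them. Receptors of steroid hormones mostly act as homodimers, whereas the retinoid, thyroid hormone, vitamin D and fatty acid receptors pair with a retinoid X receptor (RXR). Several orphan members, for which no natural ligand rules their activity, are controlled by how much of the protein is made. In the mammary gland members of this family carry the hormone signals that govern growth and differentiation.

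The samples were 6 lines, each grown from a single sorted cell of the mouse mammary carcinoma line 4T1. The labels class clones E and T as intravasating (they enter blood vessels) and clones I, K, L and P as non-intravasating. Each clone is a single line, and each had 1 level per promoter (the fraction of cytosines read as methylated, 0 to 1) from bisulfite sequencing in 2 rounds. The parental line was not analysed here. Read depth is unknown, and p-values measure only the spread between these 6 clonal lines. The promoters of 9 found epithelial marker genes had a mean level of 0.214 over 10 rows, with Cdh1 at 0.0856 and Epcam at 0.172, against 0.605 over 10 rows of 8 fibroblast genes and 0.623 over 8 rows of 8 leukocyte genes. Single rows of the lists overlapped. In the epithelial list Krt19 was at 0.50, the Cldn7 rows at 0.295 and 0.280 and Krt18 at 0.258. In the fibroblast list Pdgfra row 1 was at 0.0597 and Col1a1 at 0.397. In the leukocyte list Cd14 was at 0.241 and Lyz2 at 0.343. Promoter levels do not measure expression.

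Methylation of vertebrate DNA falls on the cytosine of a CG pair (CpG), so the CpGs of a promoter are the letters that the levels are read from. The table gave no promoter boundaries. RefSeq sequences (GRCm38.p6) of 250 bases before to 50 bases after a transcript start were found for 37 of the 41 genes, 56 windows in all. The 250 bases before the start are printed below for 5 genes that span the states of the family, 5′ to 3′, with every CpG in capitals. Nr4a1 is shown since it differed most between clones, Nr4a2 as its CpG-dense relative, Nr1d2 as a CpG-rich promoter with little methylation, Nr2e1 as a CpG-rich promoter with the most of any gene with 1 row, and Nr0b2 as a CpG-poor one. They lie on the plus strand at chr15:101266596-101266845 (Nr4a1) and chr4:133553126-133553375 (Nr0b2), and on the minus strand at chr2:57124004-57124253 (Nr4a2), chr14:18239107-18239356 (Nr1d2) and chr10:42583591-42583840 (Nr2e1). Those of Nr4a2, Nr1d2, Nr2e1 and Nr0b2 end just before the first base of the annotated gene. The Nr4a1 window ends before a start that lies 12944 bases inside the annotated gene, which has a longer transcript.
Nr4a1: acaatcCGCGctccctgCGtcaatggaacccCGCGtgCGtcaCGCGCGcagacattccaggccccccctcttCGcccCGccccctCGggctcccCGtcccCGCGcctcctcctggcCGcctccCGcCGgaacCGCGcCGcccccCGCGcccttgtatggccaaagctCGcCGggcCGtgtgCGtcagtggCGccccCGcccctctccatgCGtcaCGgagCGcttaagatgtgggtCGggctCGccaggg
Nr4a2: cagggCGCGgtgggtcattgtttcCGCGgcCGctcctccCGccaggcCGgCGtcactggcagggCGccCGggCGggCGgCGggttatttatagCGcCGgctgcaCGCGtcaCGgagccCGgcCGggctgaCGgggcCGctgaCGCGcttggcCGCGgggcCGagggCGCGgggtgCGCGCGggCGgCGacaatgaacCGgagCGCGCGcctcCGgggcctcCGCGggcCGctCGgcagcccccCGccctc
Nr1d2: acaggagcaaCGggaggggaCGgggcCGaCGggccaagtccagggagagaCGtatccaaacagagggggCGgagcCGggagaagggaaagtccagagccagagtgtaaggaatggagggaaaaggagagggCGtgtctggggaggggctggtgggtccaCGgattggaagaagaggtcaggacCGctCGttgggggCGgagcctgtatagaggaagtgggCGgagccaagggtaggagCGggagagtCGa
Nr2e1: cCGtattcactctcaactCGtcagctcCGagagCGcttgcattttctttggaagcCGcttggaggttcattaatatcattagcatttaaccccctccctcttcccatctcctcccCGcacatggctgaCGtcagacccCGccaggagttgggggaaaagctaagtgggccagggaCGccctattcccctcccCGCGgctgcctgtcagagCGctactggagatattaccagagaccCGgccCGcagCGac
Nr0b2: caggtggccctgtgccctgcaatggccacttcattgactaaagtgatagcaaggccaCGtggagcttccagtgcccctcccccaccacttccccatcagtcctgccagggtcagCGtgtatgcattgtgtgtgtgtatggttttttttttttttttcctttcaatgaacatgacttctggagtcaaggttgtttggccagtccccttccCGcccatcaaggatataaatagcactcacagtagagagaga

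The printed Nr4a1 stretch holds 34 CpGs, that of Nr4a2 44, those of Nr1d2 and Nr2e1 15 each and that of Nr0b2 3. The letters TGCGTCA, which contain a CpG and resemble the elements bound by CREB and AP-1 factors, occur 4 times in the Nr4a1 stretch. Searched on both strands, they were present in 1.75% of 32851 RefSeq stretches of this length, and Nr4a1 was the 1 stretch with 4 or more copies. This motif was chosen after the sequence was seen. AGGTCA, the core site that many nuclear receptors bind, was present on either strand in 11 of the 56 windows of the family (19.6%) and in 14.0% of all windows; the 11 belong to 10 genes, among them Nr1d2, Rxra and Pparg. A match is a stretch of letters and not a measured site.

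Across the clones the family held both extremes of methylation. Of the 56 rows, 17 (30.4%) were below 0.2 in all 6 clones and 6 (10.7%) were above 0.8 in all 6, against 32.3% and 9.57% of all promoters. The mean level over the family was 0.444 in clone E, 0.409 in T, 0.448 in I, 0.444 in K, 0.431 in L and 0.444 in P. Clone T was the lowest of the 6 here, whereas clone L was the lowest over all promoters (0.369, with T at 0.377 and the other clones between 0.402 and 0.412). Most members kept a similar level in every clone, with a median range over the clones of 0.0829, against 0.0894 over all promoters.

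**Figure D1:**
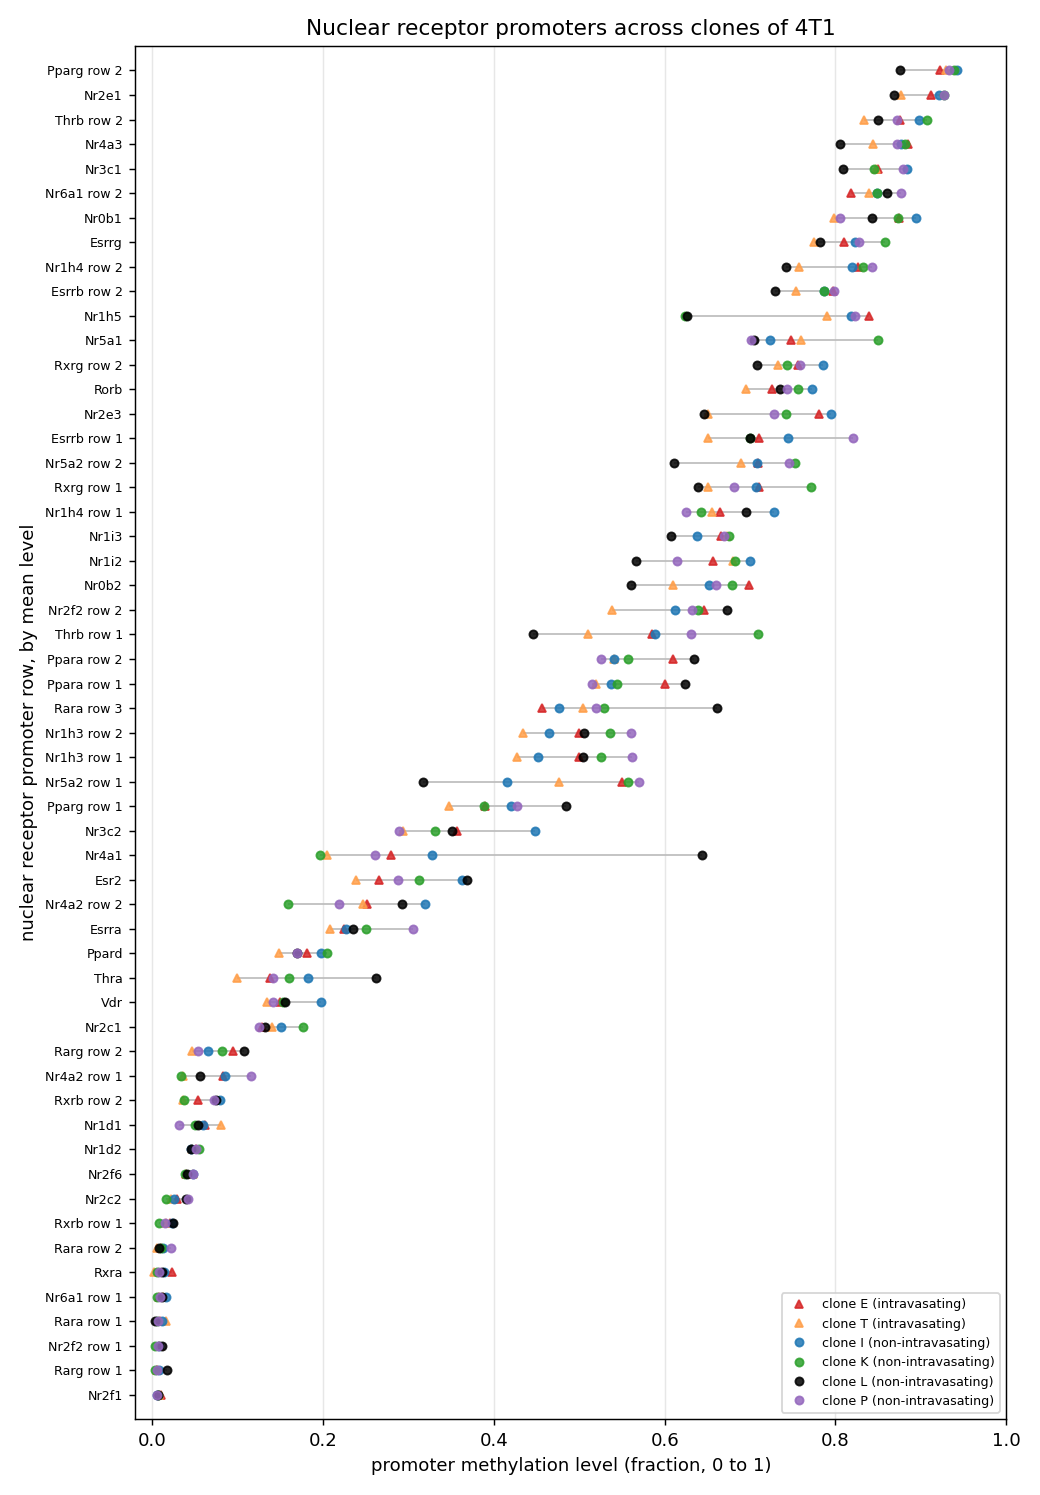
Methylation level (x axis, fraction) of 55 nuclear receptor promoter rows (y axis, ordered by mean) in the 6 clones; triangles are intravasating and circles non-intravasating clones, and a grey line spans the range. Rows run from Nr2f1 at 0.00678 to Pparg row 2 at 0.923, and the longest line is that of Nr4a1, from 0.196 to 0.644.

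Retinoid receptors, which bind vitamin A derivatives, included several of the least methylated promoters of the family. The Rxra promoter, of the common partner of the non-steroid receptors, was at 0.0104 ± 0.00727 (SD, n = 6). Both Rxrb rows were low (0.0179 and 0.0586 as means of 6 clones), as were both Rarg rows (0.00717 and 0.0745) and Rara rows 1 and 2 (0.00823 and 0.0113). Rxrg, the RXR gene known mainly from muscle and brain, stood apart with rows at 0.693 ± 0.0481 and 0.747 ± 0.0264 (SD, n = 6). The other Rara row, row 3, was at 0.456 in clone E, 0.504 in T, 0.476 in I, 0.528 in K, 0.661 in L and 0.52 in P. Clone L was thus the highest at Rara row 3, by 0.157 over the median of the other 5, while rows 1 and 2 were at or below 0.0211 in all clones.

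The COUP-TF genes Nr2f1 and Nr2f2, which encode orphan receptors of embryonic development, had nearly unmethylated rows at 0.00678 ± 0.00191 and, for Nr2f2 row 1, 0.00734 ± 0.00264 (SD, n = 6). Their relative Nr2f6 was at 0.0433, and the testicular receptor genes Nr2c1 and Nr2c2 were at 0.142 and 0.0287. In contrast Nr2e1, the gene of the neural stem cell receptor TLX, was at 0.905 ± 0.0259, and Nr2e3, the photoreceptor-specific receptor gene, at 0.724 ± 0.0629 (SD, n = 6).

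The NR4A genes are immediate early genes, induced within a short time by many stimuli, and their receptors act without a ligand. Nr4a1 (Nur77) had promoter levels of 0.279 in clone E, 0.204 in T, 0.328 in I, 0.196 in K, 0.644 in L and 0.261 in P. Clone L lay 0.382 above the median of the other 5 clones, and the next highest clone, I, lay at 0.328. Clone L departed by at least 0.2 at 1.48% of all promoters, 44 above and 282 below the median, and at 2 of the 56 members (3.57%), of which Nr4a1 is the one the set was chosen on. Clone L was not the highest clone at the relatives of Nr4a1. Nr4a2 (Nurr1) row 1 was at 0.0832, 0.0353, 0.0854, 0.0329, 0.0556 and 0.115 in clones E, T, I, K, L and P, and row 2 at 0.252, 0.246, 0.319, 0.159, 0.292 and 0.218. Nr4a3 (Nor1) was highly methylated at 0.861 ± 0.031 (SD, n = 6), with clone L the lowest at 0.805. Of 14 found promoters of other immediate early genes, 10 had a mean level below 0.2, against 8487 of 21965 over all promoters. At none of the 14 did a clone depart from the rest by 0.2, against 3.88% of all promoters.

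**Figure D2:**
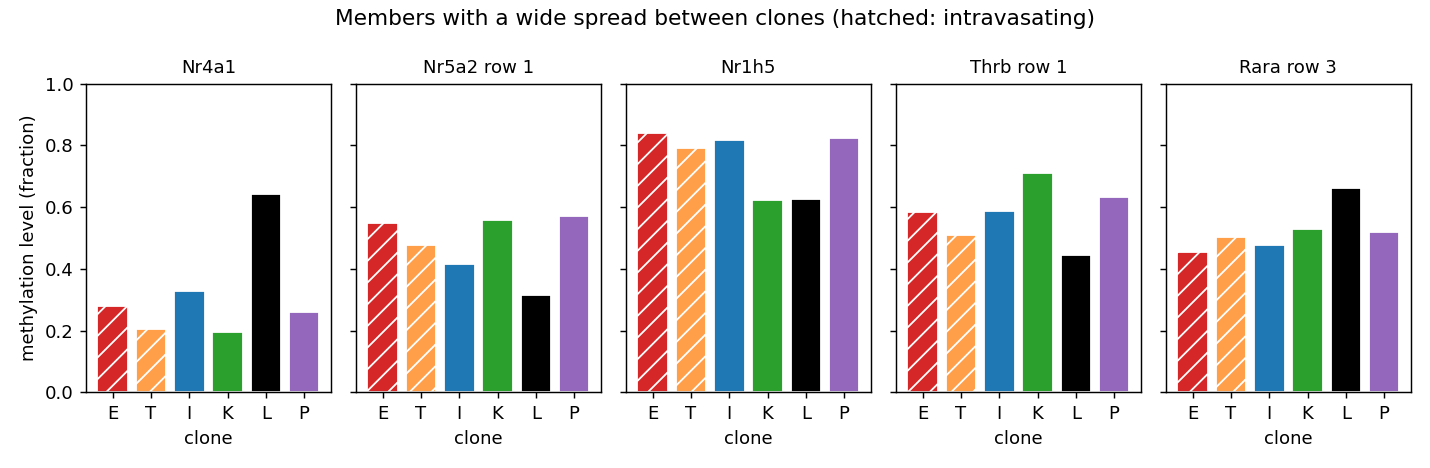
Methylation level (y axis, fraction) in each clone (x axis) of 5 rows whose range over the clones reached 0.2; hatched bars are intravasating clones, and each bar is 1 value. Clone L is highest at Nr4a1 (0.644) and Rara row 3 (0.661) and lowest at Nr5a2 row 1 (0.317) and Thrb row 1 (0.446).

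A range of at least 0.2 over the clones was reached by 6 rows (10.7%), against 10.6% of all promoters. At 3 of the 56 (5.36%) a clone departed by 0.2 or more from the median of the others, against 3.88% of all promoters. Among them were Nr4a1 and Nr5a2 row 1, both in clone L. Nr4a1, the row the set was chosen on, is in both of these counts. Row 1 of Nr5a2, the gene of the liver receptor homolog LRH-1, was at 0.55 in clone E, 0.477 in T, 0.416 in I, 0.557 in K, 0.317 in L and 0.57 in P. Clone L was the lowest there, with a departure of -0.233 from the median of the others. The mean level of clone L over all promoters was also the lowest, and with each clone centred on its median the Nr5a2 departure was -0.187. The part of the clone-wide level in it was not tested. That of Nr4a1 was larger after centring, at 0.426.

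A further 3 wide rows had no clone that stood alone by 0.2. Nr1h5, a farnesoid X receptor relative that binds sterols, was at 0.839 in clone E, 0.791 in T, 0.818 in I, 0.624 in K, 0.626 in L and 0.823 in P. Clones K and L formed a low pair at Nr1h5, below the other 4. Row 1 of Thrb, a thyroid hormone receptor gene, was at 0.585, 0.51, 0.589, 0.709, 0.446 and 0.631 in clones E, T, I, K, L and P, with K at the top and L at the bottom. The third was Rara row 3, given above.

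Clone L was the highest of the 6 at 12 of 56 rows (21.4%) and the lowest at 16 (28.6%). The 12 include Nr4a1, the row the set was chosen on. Over the 55 other rows it was the highest at 11 (20%) and the lowest at 16 (29.1%). Over all promoters it was the highest at 7.49% and the lowest at 36.0%. The rows where it was highest included Nr4a1, Rara row 3, Thra, Esr2, Pparg row 1 and both Ppara rows, whose levels were similar. They also included Nr2f2 row 1, Rarg row 1 and Rxrb row 1, which were at or below 0.0246 in every clone. Its mean absolute difference to the other clones was 0.0595 over the family, a value that contains the Nr4a1 level the set was chosen on. Over the 55 other rows it was 0.0535, against 0.0536 over all promoters, the largest of the 6 clones in both. The pair of T and L, at rank 7 of 15 from the closest over all promoters, was at rank 13 over the family with or without Nr4a1, and E and T were at rank 7 over the family and rank 8 over all. No test was made of these shares and ranks.

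Receptors of oxysterols, bile acids and xenobiotics, whose symbols begin with Nr1h or Nr1i, had row means from 0.495 to 0.803. The liver X receptor gene Nr1h3, of an oxysterol sensor, had near-equal rows at 0.495 and 0.50. The bile acid receptor gene Nr1h4 had rows at 0.668 and 0.803, and the xenobiotic receptor genes Nr1i2 (PXR) and Nr1i3 (CAR), best known from liver, were at 0.65 ± 0.0506 and 0.655 ± 0.0267 (SD, n = 6). Among the fatty acid receptors, Ppard, which is expressed in most tissues, was at 0.178 ± 0.0209 (SD, n = 6). Ppara, of fatty acid oxidation, had rows at 0.557 and 0.568, and Pparg, of adipocyte differentiation, at 0.409 and 0.923. Row 1 of Pparg was at 0.39 in clone E, 0.348 in T, 0.42 in I, 0.388 in K, 0.484 in L and 0.427 in P. In row 2 of Pparg the levels were 0.922, 0.93, 0.942, 0.939, 0.875 and 0.933 in the same order. Clone L was thus the highest at row 1 and the lowest at row 2.

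Receptors of the steroid hormone type ranged from 0.242 to 0.853. The glucocorticoid receptor gene Nr3c1 had the highest level of them, 0.853 ± 0.027 (SD, n = 6), and the mineralocorticoid receptor gene Nr3c2 was at 0.345 ± 0.0582. Esr2, the gene of estrogen receptor beta, was at 0.306 ± 0.052. The estrogen-related receptor genes, orphan regulators of energy metabolism and of pluripotent cells, were at 0.242 for Esrra, 0.721 and 0.775 for Esrrb and 0.813 for Esrrg. Steroid receptor genes and other nuclear receptor genes whose symbols fall outside the rule also differed widely in level. Esr1, of estrogen receptor alpha, was at 0.031, whereas Pgr, of the progesterone receptor, was at 0.853, Hnf4a at 0.66 and Hnf4g at 0.715 (means of 6 clones).

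The circadian repressors Nr1d1 and Nr1d2 (REV-ERB) were low in all clones, at 0.0558 ± 0.0162 and 0.0489 ± 0.00391 (SD, n = 6), while Rorb, an activator at the same kind of element, was at 0.738 ± 0.0264. The vitamin D receptor gene Vdr was at 0.155 and Thra at 0.164. The steroidogenic factor gene Nr5a1 was at 0.748 and the X-linked Nr0b1 (DAX-1), its repressor, at 0.848. Nr0b2 (SHP), which lacks a DNA-binding domain and represses LRH-1, was at 0.643.

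Alternative promoter rows of a gene could lie far apart. Of 14 member genes with more than 1 row, 6 (42.9%) had rows whose means were at least 0.2 apart, close to the 40.9% of the 1300 such genes in the table. Nr6a1, an orphan receptor gene of germ cells, had row 1 at 0.0101 ± 0.00365 and row 2 at 0.849 ± 0.0198 (SD, n = 6). Its row 2 was at 0.818 in clone E, 0.839 in T, 0.849 in I, 0.849 in K, 0.861 in L and 0.877 in P, and its row 1 was at or below 0.0154 in every clone. Row 2 of Nr2f2 was at 0.646 in clone E, 0.538 in T, 0.613 in I, 0.639 in K, 0.673 in L and 0.632 in P, far above the row 1 level in every clone. Rara rows 1 and 3 were 0.516 apart, the Pparg rows 0.514, the Thrb rows 0.294 and the Nr5a2 rows 0.222. Row 2 of Thrb was at 0.876 in clone E, 0.833 in T, 0.897 in I, 0.907 in K, 0.85 in L and 0.872 in P. Row 2 of Nr5a2 was at 0.709, 0.69, 0.709, 0.753, 0.611 and 0.746 in the same order. Clone L was the lowest at both rows of Nr5a2, and clone K was the highest at both rows of Thrb. Which transcript start a row stands for is not given.

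**Figure D3:**
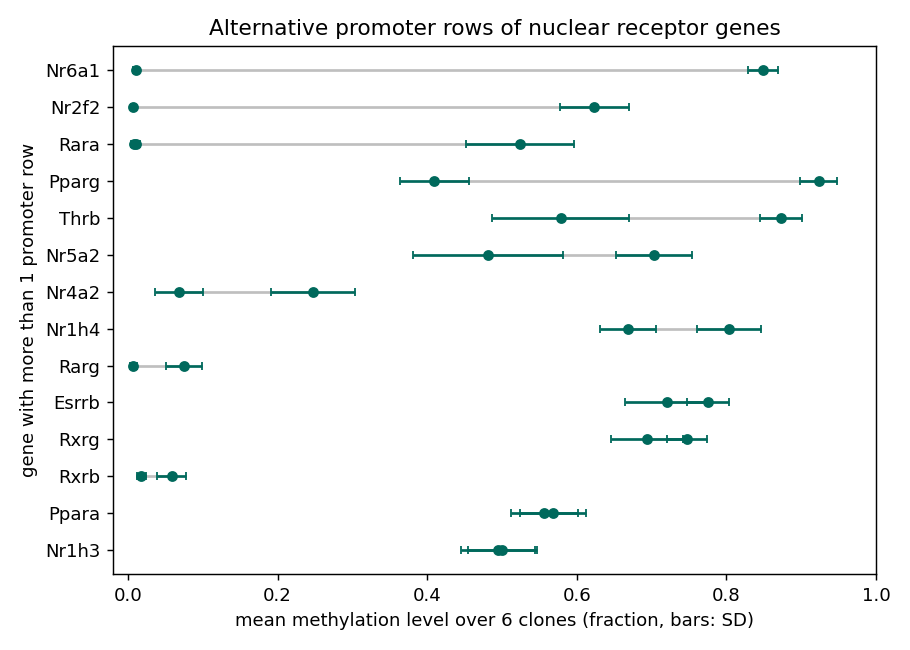
Mean methylation level over 6 clones (x axis, fraction, bars are the SD) of every promoter row of the 14 nuclear receptor genes with more than 1 row (y axis, ordered by the distance between rows). Rows of Nr6a1 are 0.839 apart and those of Nr1h3 0.00526.

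CpG-rich windows, with an observed over expected CpG ratio of at least 0.6, belonged to 14 of the 37 genes with a RefSeq window, taking the mean over a gene's windows. The level of a gene was here the mean over its promoter rows, which puts Nr6a1 at 0.429. The median level was 0.28 for the CpG-rich genes, against 0.592 for the 23 CpG-poor genes. Across these genes the ratio and the level had Pearson r = -0.328 and Spearman rho = -0.243 (n = 37 genes measured in the same libraries, not independent replicates). Levels below 0.2 were found for 6 of the 14 CpG-rich genes and for 7 of the 23 CpG-poor genes. The CpG-poor genes held the lowest levels, at Nr2f1 and Rxra (ratios of 0.505 and 0.563). CpG-rich windows stood at both ends too. Nr2f6, Rxrb and Nr1d2 (ratios of 1.04, 0.991 and 0.806) were below 0.05, Rxrb as the mean of its rows. Nr2e1, Nr4a3 and Esrrg (0.770, 0.866 and 0.817) were above 0.8. The stretches of Nr1d2 and Nr2e1 printed above hold the same number of CpGs, and their levels were 0.0489 and 0.905. With windows for 70.4% of all genes of the table, under 80%, the same check over all genes is void and is not given.

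The contrast stated in the study's design, intravasating against non-intravasating clones, was fitted over all promoters with limma. It called none of the 56 nuclear receptor rows at an adjusted p under 0.05 (Benjamini-Hochberg), and 0.00911% of all promoters. At an unadjusted p under 0.05 there was none either, against 3.93% of all promoters, and under the alternative settings the members at that threshold numbered 0 to 2. The lowest limma adjusted p of a member was 0.999981. In simulated data with the same spread, changes were planted at 200 promoters with a mean level above 0.05. Of these, 28% were called at a change of 0.2 and none at a change of 0.1. At such promoters a difference of 0.1 was thus not detected with 2 against 4 clones. No change was planted at promoters with lower means, so the simulation does not cover the members among them.

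The groups did not overlap at 7 rows (12.5%), against 11.2% of all promoters, and the largest of these gaps was 0.0219. Nr1d1 and Nr2f1 were higher in both intravasating clones (2 rows, 3.57%, against 4.31% of all promoters). Esr2, Esrra, Nr6a1 row 2, Rorb and Thra were lower in both (5 rows, 8.93%, against 6.89%). Esr2 was at 0.266 in clone E and 0.239 in T and at 0.362, 0.312, 0.368 and 0.288 in I, K, L and P, the widest of these gaps. Its difference was -0.0802 with a limma SE of 0.0438. The Thra promoter was at 0.137 and 0.0985 in E and T and at 0.183, 0.16, 0.262 and 0.141 in I, K, L and P. Its difference was -0.0686 with a limma SE of 0.0343, and the nearest clones, E and P, lay at 0.137 and 0.141. The Nr1d1 promoter was at 0.0617 and 0.08 against 0.0597, 0.0494, 0.0531 and 0.0307, a difference of 0.0226 with a limma SE of 0.0108. It had the smallest unadjusted limma p of the family, 0.0661, and its adjusted p was 0.662 to 1.0 over the alternatives.

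The groups overlapped at the largest positive differences, Nr1h5 (0.0921, limma SE 0.0634), Nr5a2 row 1 (0.0481, SE 0.0768) and Nr1i2 (0.0271, SE 0.0458). Nr1i2 was at 0.656 and 0.68 in E and T and at 0.7, 0.683, 0.566 and 0.615 in I, K, L and P. That of Nr5a2 row 1 was -0.00138 without clone L. The largest negative difference, -0.115 at Nr4a1, contains the clone L level that the set was chosen on and is given without a test; it was -0.0198 without clone L. The mean was lower in the intravasating clones at 37 of 56 rows (66.1%), Nr4a1 among them, against 57.5% of all promoters. As a family mean the intravasating clones were at 0.427 ± 0.0247 (SD, n = 2) and the others at 0.442 ± 0.00751 (SD, n = 4). The difference of -0.015 rested on clone T: without it, the difference was 0.00245. The family mean contains the Nr4a1 row. Over all promoters the same difference was -0.00646, and with each clone centred on its median the family difference was -0.00757. The part of the clone-wide level in the family difference was not tested.

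**Figure D4:**
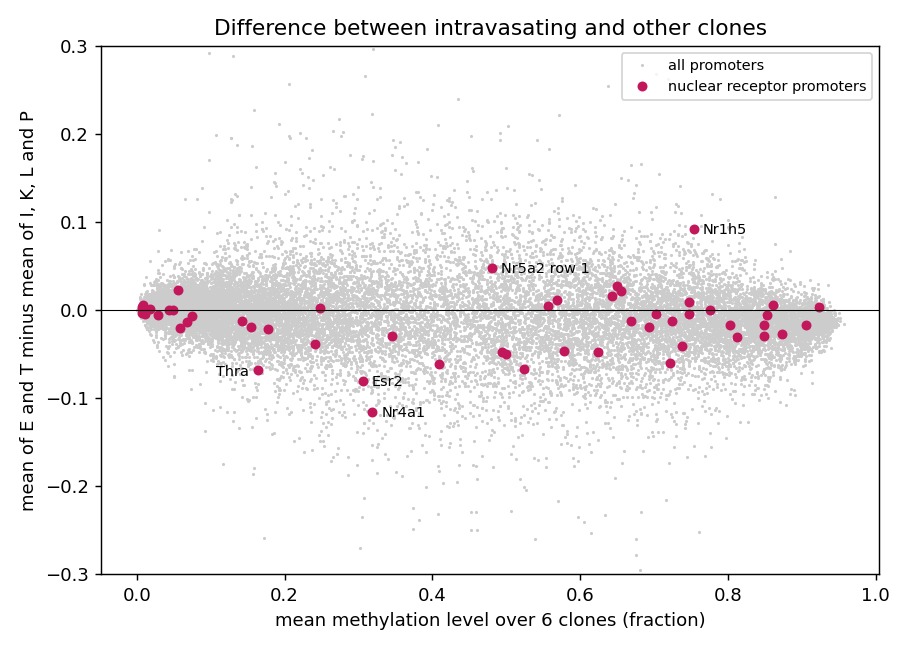
Mean of clones E and T minus mean of clones I, K, L and P (y axis, difference of fractions) against the mean level over 6 clones (x axis, fraction), with nuclear receptor rows in red over all promoters in grey. 7 promoters lie beyond the y axis, and the members run from Nr4a1 at -0.115 to Nr1h5 at 0.0921.

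Genes that work with the receptors were counted from lists. Over all promoters, 8487 of 21965 rows had a mean level below 0.2. The groups did not overlap at 11.2% of all promoters (4.31% higher and 6.89% lower in the intravasating clones). Of 19 rows of 16 coregulator genes, which bridge receptors to chromatin enzymes, 13 had a mean level below 0.2, and the groups did not overlap at 3 (2 higher and 1 lower in the intravasating clones). The lower one was Ncoa7 row 2, of an estrogen receptor coactivator gene, at 0.698 and 0.701 in clones E and T and at 0.826, 0.809, 0.826 and 0.783 in I, K, L and P. It was not called (limma adjusted p = 0.999981), and a gap of at least 0.05, as here, was found at 0.687% of all promoters and at no member. Row 1 of Ncoa7 had a mean level of 0.0183, and the groups overlapped there. The 21 rows of 16 genes of retinoid transport and metabolism had a median level of 0.738, with no row higher and 3 lower in both intravasating clones. Vitamin D and thyroid hormone handling genes (11 rows) had a median of 0.597, with 1 row higher and 1 lower. Targets of PPAR and LXR (19 rows of 17 genes) had a median of 0.48 with 1 row lower. This was Angptl4, of an inhibitor of lipoprotein lipase, at 0.664 and 0.585 in E and T and at 0.729, 0.753, 0.737 and 0.749 in I, K, L and P (limma adjusted p = 0.999981). No gene of these lists was called. At no row of these 4 lists did a clone lie 0.2 or more from the median of the others, against 3.88% of all promoters.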

How the data were processed

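DNA methylation was measured by bisulfite sequencing (76 nt paired ends) in 14 libraries, 2 rounds for each of 6 clones and the parental line, per the labels' protocols. The deposited promoter levels are fractions from 0 to 1, 1 per clone, with no counts, coverage, coordinates or separate rounds. The submitters' processing notes name bedtools, DESeq and mm10 with no role. Not given in the sources used here are the aligner, the promoter boundaries and how rounds were combined. No depth, interval or coverage minimum could be had. The table of hypomethylated regions carries no gene names and was not used here.

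Identical rows of a gene (145 in all) were counted once, and rows were numbered in file order. The fit over 21965 promoters used limma 3.58.1 under R 4.3.3, with a trend on the mean level in eBayes and Benjamini-Hochberg adjustment over all promoters, each clone 1 replicate. Whether rounds came from separate cultures is not stated. Non-overlap, departure and class counts are descriptions. Alternatives were logit and arcsine scales, no trend, centring, a range filter of 0.1, other thresholds, all rows and each clone left out. Counts and figures were made in Python 3.11.15 with NumPy 2.4.6, pandas 2.3.3, SciPy 1.17.1 and matplotlib 3.10.9. The limma step was tested on simulated data.

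Members, lists and tests were chosen with earlier results of these data known. Named with all 6 values (rows with means below 0.05 by their mean or range) were Nr4a1, members that were called, had a gap of at least 0.05, a clone departing by 0.2 or a range of 0.2, the 3 largest differences in each direction, and genes whose rows differed by 0.2. Nr1d1, and list genes by the same gap or departure, were also named. Nr4a2, and the rows given to place Nr4a1, were chosen after their values were seen. Values of 1 member row and 1 list gene are not reported here.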

Additional observations from a re-analysis of the deposited data

Results flagged for a closer look

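Among the 4 non-intravasating clones, Dixon's test at the 95% level set 1 clone apart from the other 3 at 6 of the 55 promoter rows other than Nr4a1 (10.9%), where chance flags about 1 in 20 and where 6.55% of all promoters were set apart in the same way. Clone L was the low one at 4 highly methylated rows: Nr2e1 (0.869, the others at 0.921 to 0.927), Nr4a3 (0.805, the others at 0.872 to 0.881), Pparg row 2 (0.875, the others at 0.933 to 0.942) and Esrrb row 2 (0.729, the others at 0.787 to 0.798). Clone L also had the lowest mean level over all promoters, 0.369; it was set apart as the low clone at 2.87% of all promoters, and the part of its level in these rows was not tested. Clone K was high at Nr5a1 (0.85, the others at 0.701 to 0.723) and low at Rxrb row 2 (0.0364, the others at 0.0722 to 0.0788). Nr4a1 was left out because the set was chosen on its level in clone L.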

How the results depend on the processing

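No nuclear receptor row was called under any of the 13 alternatives. Over all promoters the calls were 2, and they numbered 0 without the mean trend, 5 after centring, 25 with the range filter of 0.1, and 0 to 4 with a clone left out. Non-overlapping members numbered 7 and were 0 at a gap of 0.05 or 0.1, and 8 to 24 with a clone left out (24 without clone E, 13 without T, 11 without I, K or L), a count that fewer clones raise by construction. Departing members numbered 5 at 0.15, 1 at 0.3, and 1 to 3 with a clone left out (1 without L). The 1 at 0.3 was Nr4a1, the row the set was chosen on. The family difference was -0.0269 as a difference of medians, and -0.0325 (without E) to 0.00245 (without T) with a clone left out. No row was above 0.9 in all clones. The CpG-rich minus CpG-poor median was -0.312, and was -0.399 at a ratio of 0.75 and -0.434 for genes with 1 row and 1 window. The Nr5a2 row 1 difference was -0.00138 to 0.0847 with a clone left out. No paired analysis was possible because the 2 rounds of a clone have no columns of their own. Depth is unknown, so it cannot be said which low levels rest on few reads.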
